A study of Canis lupus familiaris with 22 samples.

Results

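The glucocorticoid receptor, encoded by *NR3C1*, and 9 of its target genes were followed in the blood of dogs with and without canine atopic dermatitis (cAD). The members were the transcript probes whose gene name in the scanner files equalled *NR3C1*, *FKBP5*, *TSC22D3*, *PER1*, *DUSP1*, *KLF9*, *SGK1*, *ZBTB16*, *DDIT4* or *ANXA1*. All 10 genes were found, out of 34382 different gene names on the array. They were read by 22 of the 43603 probes, and all 22 were tested.

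RNA of venous whole blood, as the sample labels have it, though the title of the series speaks of nuclear cells, was measured on 22 Agilent canine arrays: 8 from healthy control dogs (ctrl), 7 from cAD patients before allergen-specific immunotherapy (0), and 7 from the same patients after 6 months of it (6 months). ASIT consisted of injections under the skin of rising amounts of the allergens to which each dog reacted. On every array the RNA of the dog carried Cy5 and a common pool of RNA from other healthy dogs carried Cy3, so that a log2 ratio of 0 means the level of the pool. All were client-owned adult dogs of several breeds, mostly female among the cAD patients and mostly male among ctrl. The patients had received no anti-inflammatory drug for some weeks before allergy testing and the first blood sample, while drug use later and in ctrl is not given in the sources used here.

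Cortisol and its synthetic analogues bind the receptor in the cytoplasm, where a complex of HSP90 and immunophilins keeps it ready for the hormone. The bound receptor moves to the nucleus, where it raises the transcription of genes near its response elements and lowers that of many inflammatory genes. In blood, exposure to glucocorticoids is known to raise the transcripts of *FKBP5*, *TSC22D3*, *PER1* and *ZBTB16* within hours, to raise the number of neutrophils and to lower that of circulating lymphocytes.

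The brightest probe of each gene was used to represent it. For 9 of the 10 genes it stood well above background in both channels on all 22 arrays, and the probe of *KLF9* did so on all 8 ctrl arrays, all 7 arrays before ASIT and 6 of 7 after it. No spot of any member was saturated. Over all probes, the share with Cy5 well above background was 83.7% to 92.3% on ctrl arrays, 53.3% to 87.5% before ASIT and 57.2% to 81.6% after it. The 8 ctrl arrays filled 2 slides scanned on 1 day, and no array of a patient shared those slides or that day, so that in both comparisons with ctrl, disease cannot be told apart from slide and scan day.

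In 0 vs. ctrl, 0 of 10 members had a limma adjusted p under 0.05, where 16 of 38287 tested probes (0.0418%) did. At an unadjusted limma p under 0.05, 1 of 10 members, *DDIT4*, differed, beside 11.7% of all tested probes. The arrays of ctrl and 0 overlapped for each of the 10 genes, while they did not overlap for 0.219% of the tested probes. A one-way analysis of variance followed by Tukey's procedure, named in the study's methods but run here on the filter and the scanner ratios of this text and not on the authors' input, called 0 members and 0 of all 38287 probes in each of the 3 comparisons.

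After ASIT, in 6 months vs. ctrl, 0 of 10 members and 0% of the tested probes passed the adjusted threshold, and 1 of 10, again *DDIT4*, had an unadjusted limma p under 0.05, beside 7.2% of the probes. In 0 vs. 6 months, 0 of 10 members and 0% of the probes passed it, and 0 of 10 had an unadjusted p under 0.05, beside 5.96%. The groups overlapped for all 10 genes in both comparisons, with 0.11% and 0.0183% of the probes not overlapping. The comparisons share samples: ctrl stands in the first and second, and the arrays before and after ASIT each stand in 2 of the 3. At an unadjusted p under 0.05, 3.81% of all probes were higher and 7.93% lower in 0 vs. ctrl, 4.08% higher and 3.12% lower in 6 months vs. ctrl, and 2.15% higher and 3.81% lower in 0 vs. 6 months. A share of 10% of the members was thus no larger than that of all probes in 0 vs. ctrl.

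*NR3C1*, the receptor itself, was read by 4 probes on chromosome 2. The log2 ratio of the brightest ranged from -0.83 to 0.80 in ctrl (median -0.35), from -0.72 to 0.24 before ASIT (median -0.15) and from -0.33 to 0.29 after it (median -0.01). The widest spread was among the healthy dogs, which held both the lowest and the highest of the 22 values. Means (± SD) stood at -0.20 ± 0.53 for the 8 ctrl dogs, -0.21 ± 0.34 for the 7 patients before ASIT and -0.04 ± 0.21 after it. The difference in 0 vs. ctrl was -0.01 (limma SE 0.21, adjusted p = 0.994), and that in 0 vs. 6 months was -0.17 (SE 0.21, adjusted p = 0.934), with 3 of 7 dogs higher before ASIT, and -0.09 without dog 3 before ASIT.

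The other 3 probes of *NR3C1* gave log2 differences of 0.04, 0.36 and -0.05 in 0 vs. ctrl. The sign of so small a difference was not the same across probes, and the highest of them, 0.36, had a limma adjusted p of 0.494 and an exact permutation p of 0.103. The 4 probes lay between -0.04 and 0.39 in 6 months vs. ctrl.

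*FKBP5*, an immunophilin of the receptor complex that lowers the affinity for cortisol and is itself induced by it, was read by 1 probe on chromosome 12. Its log2 ratio ranged from -0.91 to 0.69 in ctrl (median -0.11), from -0.53 to 2.42 before ASIT (median -0.15) and from -1.58 to 1.90 after it (median -0.36). The medians of the 3 groups lay close to each other, and the spread of the cAD patients was wider than that of ctrl. Before ASIT the high values were those of dog 2 at 2.42 and dog 4 at 0.96, and after ASIT that of dog 4 at 1.90, while dog 2 was then the lowest of all 22 arrays at -1.58. In dog 2, whose 2 arrays shared a slide, the log2 ratio after minus before ASIT was -4.00. The earlier of these arrays had Cy5 well above background on 61.2% of probes and 22 outlier spots, where the other 3 arrays of the slide had 80.8% to 87.5% and 3 to 6 spots, and the part of this in the difference was not tested. In the other 6 dogs after minus before ASIT lay between -0.27 and 0.94.

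The mean of *FKBP5* was 1.38-fold that of ctrl before ASIT (log2 difference 0.47, limma SE 0.42, adjusted p = 0.726, exact permutation p = 0.304). Without dog 2 before ASIT the difference was 0.12. After ASIT the difference from ctrl was 0.01 (adjusted p = 0.998), moving to -0.34 without dog 4 and to 0.24 without dog 2 after ASIT. Before against after ASIT it was 0.46 (adjusted p = 0.934), with 4 of 7 dogs higher before ASIT and an exact sign-flip p of 0.688. Without dog 2 before ASIT it was 0.11, and without dog 4 after ASIT it was 0.81 (limma unadjusted p = 0.0461, adjusted p = 0.629). With normexp and loess the difference was 0.19 in 0 vs. ctrl, and over the settings it ran from 0.04 to 1.37 in 0 vs. 6 months. The size of each *FKBP5* difference thus rested on these 2 dogs and on the processing.

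*TSC22D3* encodes GILZ, a leucine zipper protein that binds and restrains NF-κB and AP-1. The brightest of its 3 probes, all on chromosome X, gave log2 ratios from -0.75 to 0.44 in ctrl (median -0.18), from -0.31 to 0.75 before ASIT (median 0.13) and from -0.40 to 0.63 after it (median 0.16). The groups overlapped over most of their range. The mean was 1.29-fold that of ctrl before ASIT (log2 difference 0.36, limma SE 0.19, adjusted p = 0.488) and 1.28-fold after it (0.36, adjusted p = 0.681), with exact permutation p-values of 0.0859 and 0.0853. The other 2 probes gave 0.23 and 0.22 in 0 vs. ctrl, and 0.30 and 0.39 in 6 months vs. ctrl, the latter pair with exact permutation p-values of 0.0384 and 0.0169. All 3 probes were above ctrl in both comparisons, and the difference in 0 vs. 6 months was 0.00 for the brightest (adjusted p = 0.998).

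*PER1*, a repressor of the circadian clock whose promoter the receptor also drives, was read by 1 probe on chromosome 5. Its log2 ratio ranged from -0.21 to 0.68 in ctrl, from -0.40 to 1.34 before ASIT and from -0.98 to 1.09 after it, and the ctrl range lay within those of both patient groups. The log2 differences were 0.11 in 0 vs. ctrl and -0.02 in 6 months vs. ctrl (limma adjusted p = 0.913 and 0.990). With the Cy5 channel alone, which shifts all probes as given below, they were -1.30 and -1.29.

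*KLF9*, a zinc finger repressor, varied least of all members in ctrl, from -0.18 to 0.22 (SD 0.11), and more widely in the patients, from -0.38 to 0.78 before ASIT (SD 0.48) and from -0.80 to 1.82 after it (SD 0.89). The highest of the latter, 1.82, was dog 4, and the next highest was 0.18. The difference was 0.08 in 0 vs. ctrl and -0.03 in 6 months vs. ctrl (limma adjusted p = 0.944 and 0.984), the latter moving to -0.34 without dog 4. Its second probe, given in the files as spanning chr1:87109899-87140418 (CanFam3.1), gave differences of 0.02 and -0.14. The patient arrays, on which *KLF9* spread more widely, also had fewer probes well above background, and whether the spread goes with dim signals was not tested.

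*ZBTB16*, the zinc finger factor PLZF, was read by 3 probes on chromosome 5 that differed among themselves. The brightest gave log2 ratios from -0.22 to 0.63 in ctrl, from -0.31 to 0.41 before ASIT and from -0.16 to 0.52 after it, and a difference of -0.15 in 0 vs. ctrl (limma adjusted p = 0.758). A second probe, well above background on every array, gave 0.30, and the third gave -0.30. The third had Cy5 well above background on 1 of 7 arrays before and 2 of 7 after ASIT. The brightest probe was higher before than after ASIT in 1 of 7 dogs (difference -0.08, exact sign-flip p = 0.344), and the difference was -0.14 without dog 2 before and -0.02 without dog 2 after ASIT.

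*DUSP1*, a phosphatase that switches off MAP kinases, was read by 1 probe on chromosome 4. Its log2 ratio ranged from -0.33 to 0.64 in ctrl (median 0.18), from -0.41 to 1.30 before ASIT (median 0.81) and from -0.10 to 1.29 after it (median 0.61). Of the 7 dogs before ASIT, 5 lay above the highest ctrl array, and dog 4 lay below the lowest. The mean before ASIT was 1.44-fold that of ctrl (log2 difference 0.53, limma SE 0.25, adjusted p = 0.426, exact permutation p = 0.0511). Without dog 4 before ASIT the difference was 0.71 (adjusted p = 0.214), and with normexp and loess it was 0.25. After ASIT it was 0.42 (adjusted p = 0.697).

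*SGK1*, a serum- and glucocorticoid-induced kinase, gave log2 ratios from -0.97 to 0.49 in ctrl, from -0.81 to 1.12 before ASIT and from -0.48 to 0.89 after it with the brighter of its 2 probes on chromosome 1. Its 2 probes gave differences of opposite sign in 0 vs. ctrl, 0.14 and -0.19, and neither passed the test (limma adjusted p = 0.891 and 0.766). The value without dog 2 before ASIT was -0.04.

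*DDIT4* encodes REDD1, an inhibitor of mTORC1 that is induced by glucocorticoids, low oxygen and DNA damage. The brighter of its 2 probes on chromosome 4 gave log2 ratios from -1.01 to 0.75 in ctrl (median -0.38), from -0.19 to 1.07 before ASIT (median 0.43) and from -0.31 to 0.60 after it (median 0.22). Of the 8 ctrl dogs, 7 lay below -0.19, the lowest dog before ASIT, and 1, at 0.75, lay among the highest. Means (± SD) stood at -0.35 ± 0.52 for ctrl, 0.37 ± 0.42 for the patients before ASIT and 0.12 ± 0.33 after it.

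Among the members, *DDIT4* had the largest difference in 0 vs. ctrl, 0.72 (limma SE 0.22), which is 1.64-fold. Its unadjusted limma p was 0.00368 and its exact permutation p 0.0118, but over all 38287 probes the adjusted p was 0.191. Leaving out 1 array at a time moved the difference between 0.60 and 0.88, and the lowest adjusted p among them was 0.0939. After ASIT it was 0.47, or 1.39-fold (unadjusted p = 0.0437, adjusted p = 0.681, exact permutation p = 0.0618), and with slide or scan day as a random block neither comparison was called. The dimmer probe gave 0.82 and 0.69, but Cy3 stood well above background for it on 3 of 8 healthy dogs' arrays and on none of the 7 before or the 7 after ASIT, so that its ratio rests on signals near background. Of the 7 dogs, 5 were higher before than after ASIT (difference 0.24, or 0.13 without dog 5 before ASIT, exact sign-flip p = 0.125, where 0.0156 is the smallest p that 7 pairs can give).

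*ANXA1*, annexin A1, a protein of myeloid cells that limits neutrophil migration, was read by 3 probes on chromosome 1 that lay apart on single arrays, as in ctrl dog 5 with -0.64, -1.05 and -1.15. The brightest ranged from -0.64 to 0.24 in ctrl, from -0.68 to 0.63 before ASIT and from -0.74 to 0.57 after it. The 3 probes gave 0.14, 0.12 and 0.23 in 0 vs. ctrl and 0.04, 0.05 and 0.07 in 6 months vs. ctrl, and the lowest limma adjusted p among these was 0.781. The brightest was, in 0 vs. ctrl, at 0.05 without dog 6 and at 0.27 without dog 3 before ASIT.

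**Figure D1:**
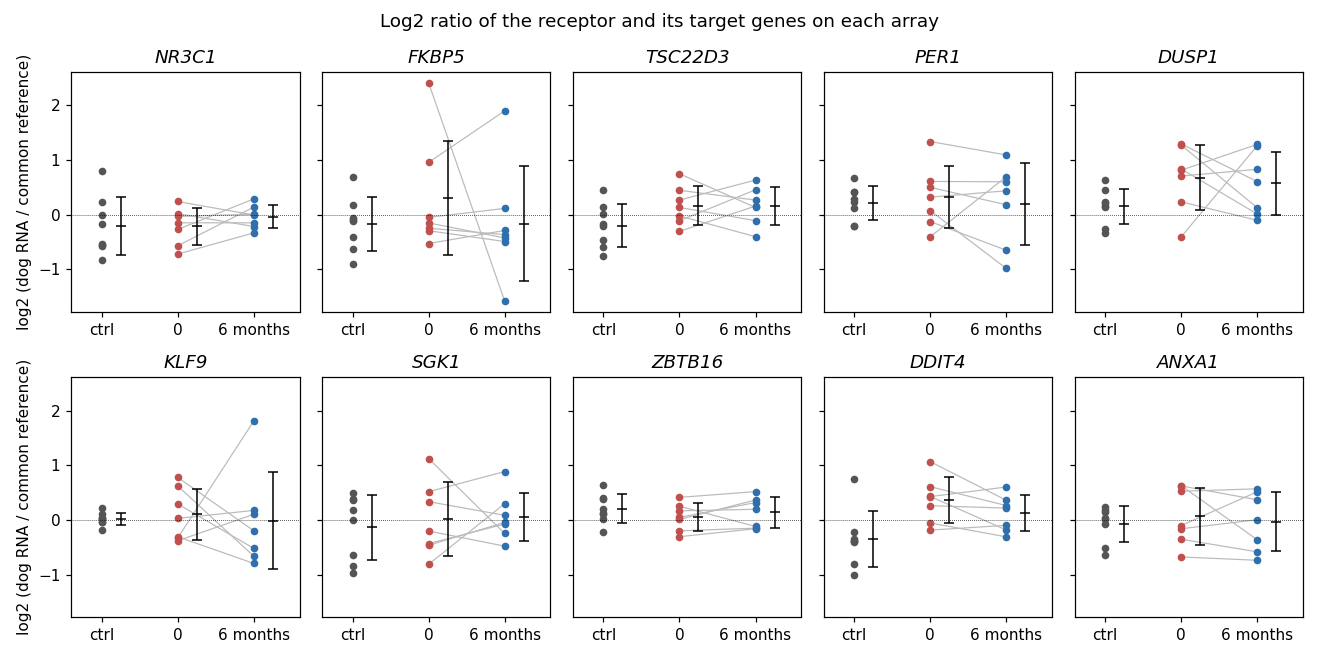
Log2 ratio of the RNA of each dog to the common pool (vertical axis) for the brightest probe of each member gene in ctrl (8 dogs), before ASIT (0, 7 dogs) and after ASIT (6 months), with grey lines joining the arrays of 1 dog and black bars giving mean ± SD. The groups overlap for each of the 10 genes, and in *FKBP5* 1 line runs from 2.42 to -1.58.

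**Figure D2:**
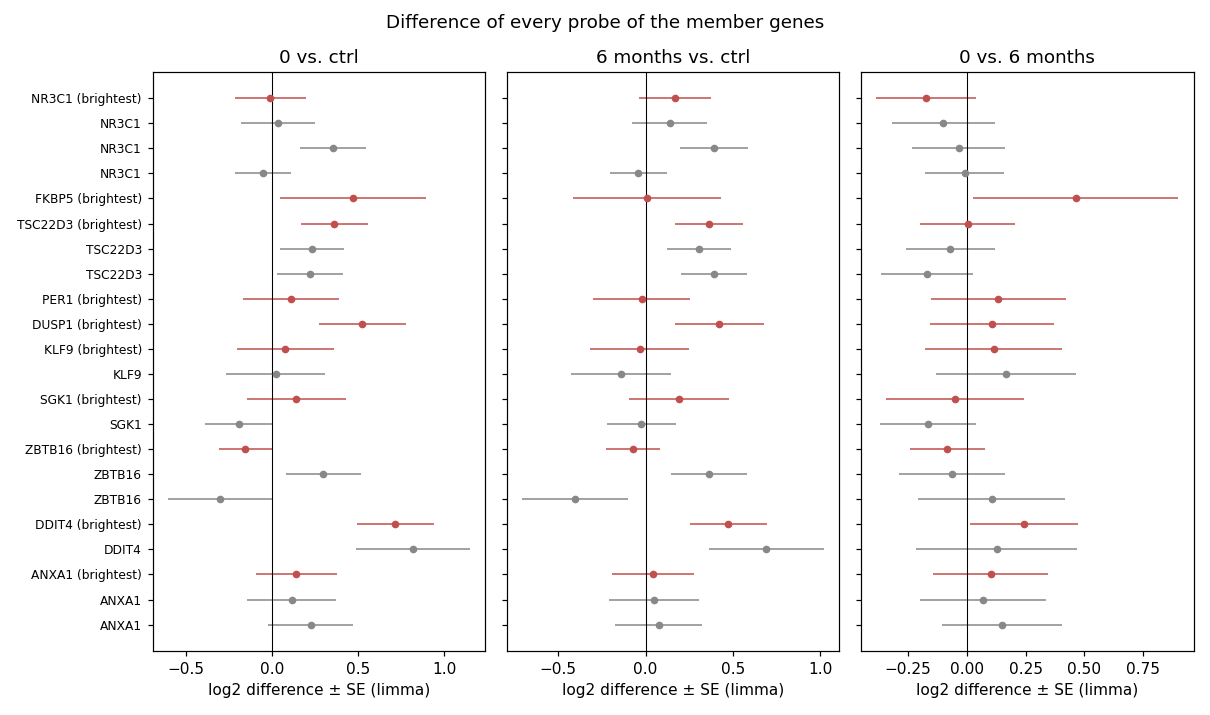
Log2 difference (horizontal axis, with limma SE) of each of the 22 probes of the member genes in the 3 comparisons, with the brightest probe of each gene in red and the others in grey. Both probes of *DDIT4* and all 3 of *TSC22D3* lie above 0 in 0 vs. ctrl and in 6 months vs. ctrl, whereas those of *ZBTB16* and *SGK1* lie on both sides.

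The ctrl arrays of the first and the second slide were set against each other, since all 8 belong to 1 group. For 3 of the 10 members, *FKBP5*, *TSC22D3* and *ZBTB16*, the 4 arrays of one slide did not overlap those of the other, beside 2.83% of all tested probes. These genes were named after their values were seen. The mean log2 ratio was 0.18 on slide 1 and -0.51 on slide 2 for *FKBP5*, 0.10 and -0.50 for *TSC22D3*, and 0.01 and 0.41 for *ZBTB16*. For *DDIT4* it was -0.07 and -0.64. For *FKBP5*, *TSC22D3* and *ZBTB16* these gaps between healthy dogs were larger than the differences of the same genes in 0 vs. ctrl, and for *DDIT4* the gap was smaller. Whether they belong to the slides or to the dogs was not tested.

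Exposure to a glucocorticoid, given or released under stress, is known to raise several of these targets at once, so the 9 targets were counted together. In 0 vs. ctrl, 8 of 9 had a difference above 0, beside 47.6% of all tested probes, and their median difference was 0.14 against -0.02 for all probes. The count was 6 with the Cy5 channel alone, where the median of all probes was -0.44 and 7 of 9 lay above that median, 7 with normexp and loess, and 6 without dog 2 before ASIT. For 6 months vs. ctrl, 6 of 9 were above 0, beside 43.6%, with a median of 0.04 against -0.04, and the count without 1 array ranged from 4 to 8. For 0 vs. 6 months, 7 of 9 were above 0, beside 48.6%, with a median of 0.11 against -0.01, and the count without 1 array ranged from 4 to 8. These are counts of differences of which 0 passed the adjusted threshold, and no p was taken over the members.

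With the Cy5 channel alone, without the pool, the median difference of all probes moved to -0.44 in 0 vs. ctrl and -0.37 in 6 months vs. ctrl, with 792 probes called higher and 16481 lower in the former and 1089 and 14613 in the latter. In 0 vs. ctrl 5 of 10 members were then called by limma, beside 17273 of 38287 probes: *DDIT4*, *TSC22D3* and *DUSP1* above ctrl and *PER1* and *KLF9* below it. The difference of *DDIT4* was 1.06. Relative to the median of all probes *DUSP1* was at 1.20, *TSC22D3* at 1.11, *NR3C1* at 0.46, *KLF9* at -0.47 and *PER1* at -0.86. For 6 months vs. ctrl 3 of 10 members were called, beside 15702 of the probes, *ZBTB16* above and *PER1* and *KLF9* below ctrl, at 1.00, -0.92 and -0.60 relative to that median. *DDIT4*, *DUSP1*, *TSC22D3*, *FKBP5*, *SGK1* and *ANXA1* lay above ctrl under both scalings, with other sizes, while *PER1* and *KLF9* in 0 vs. ctrl and *ZBTB16* in 6 months vs. ctrl had the other sign, as had *NR3C1* in both comparisons (0.02 and -0.23).

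Dog by dog, the targets did not lie on 1 side. Before ASIT the number of targets above the ctrl median was 8 of 9 in dog 1, 7 in dogs 2 and 3, 5 in dogs 5 and 6, 4 in dog 7 and 3 in dog 4. On the same arrays, between 42.9% and 51.8% of all probes lay above it. After ASIT the number ran from 8 of 9 in dog 1 and 7 in dog 4 to 3 in dogs 3 and 7. A ctrl dog set against the other 7 had between 2 and 7 of 9 targets above their median, and by this count the 8 of 9 of dog 1, at both times, lay beyond the range of the healthy dogs. The median of the 9 targets ran from -0.179 to 0.208 in ctrl. Before ASIT 5 of 7 arrays lay beyond this range (0.35, 0.93, -0.35, 0.45 and 0.25 in dogs 1, 2, 4, 5 and 6). After ASIT 5 of 7 did so, dogs 1, 2 and 4 at 0.34, 0.29 and 0.64. The other 2 did so by narrow margins, dog 5 above it at 0.214 and dog 7 below it at -0.180. By the same measure, the median of all tested probes ran from -0.025 to 0.028 in ctrl. It ran from -0.099 to 0.015 before and from -0.050 to 0.045 after ASIT. Patient arrays thus lay beyond the ctrl range over all probes as well, by smaller amounts, and the counts above are not particular to the targets.

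Dog 2 before ASIT had the largest upward shift of the 22 arrays, with a median of the 9 targets of 0.93 above ctrl. Its log2 ratios were 2.42 for *FKBP5*, 1.34 for *PER1*, 1.30 for *DUSP1*, 1.12 for *SGK1*, 0.75 for *TSC22D3* and 0.41 for *ZBTB16*, each the highest of the 7 dogs at that time. Those of *DDIT4*, *KLF9* and *ANXA1* were -0.19, -0.38 and -0.16, and the first 2 of these were the lowest at that time. After minus before ASIT, dog 2 had -4.00 in *FKBP5*, -1.37 in *SGK1*, -0.69 in *DUSP1*, -0.62 in *TSC22D3* and -0.25 in *PER1*. The last of these was still at 1.09 after ASIT. The change was 0.48 in *KLF9*, 0.17 in *ANXA1*, 0.11 in *ZBTB16* and 0.09 in *DDIT4*.

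In dog 4 all 9 targets were higher after ASIT than before, beside 50% of all probes. After minus before, their median was 0.62, with 2.14 in *KLF9*, 1.67 in *DUSP1* and 0.94 in *FKBP5*. Its arrays lay on different slides scanned on different days. In the other dogs the number of targets higher after ASIT was 5 of 9 in dog 1, 4 in dogs 2 and 5, 3 in dog 3 and 2 in dogs 6 and 7. *NR3C1* differed between the times by 0.04 in dog 4.

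**Figure D3:**
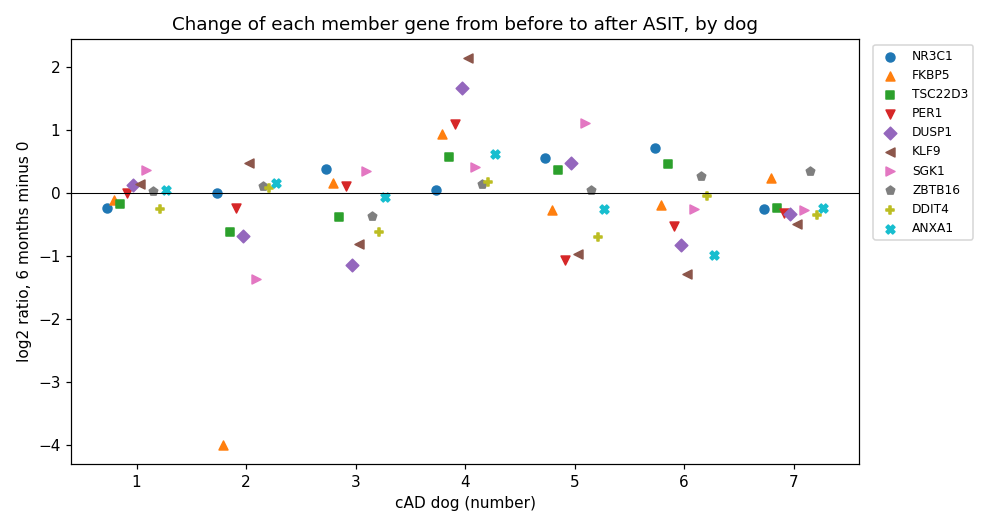
Change of the log2 ratio from before to after 6 months of ASIT (vertical axis) of each of the 10 member genes in each of the 7 cAD dogs (horizontal axis), 1 symbol per gene. All targets of dog 4 lie above 0, *FKBP5* of dog 2 lies at -4.00, and most other changes lie within 1 log2 unit of 0.

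Both arrays of dogs 1, 2 and 3 shared a slide, and the mean of 0 minus 6 months could be taken within the slides that held both times. On slide 3, with dogs 1 and 2 at both times, it was 2.06 for *FKBP5*, 0.50 for *SGK1*, 0.40 for *TSC22D3* and 0.08 for *DDIT4*. On slide 4, with dogs 3 and 4 before and dog 3 after ASIT, it was 0.34 for *FKBP5*, -0.37 for *SGK1*, 0.34 for *TSC22D3* and 0.61 for *DDIT4*. These values rest on single dogs: for *FKBP5*, after minus before ASIT was -0.12 in dog 1 and 0.16 in dog 3. The other slides of patients held 1 group only.

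Markers of blood cell types were read on the same arrays. Of 13 neutrophil genes 11 were tested, and their summed processed Cy5 signal was 327929 to 610401 in ctrl (median 453642), 373064 to 1103170 before ASIT (median 474452) and 415669 to 771606 after it (median 453166). The highest of these, 1103170, was again dog 2 before ASIT. Such sums were not scaled between arrays, so they also carry the brightness of the array. The same array had the highest sums of the monocyte genes (271036) and the clock genes given below (77112.5), with median log2 ratios of -0.42 and -0.35. Its T cell sum, 24618.9, was the lowest before ASIT. On this array the median log2 ratio of the neutrophil genes was 0.74, that of the T cell genes -0.67 and that of the B cell genes -0.94. After ASIT, when its *FKBP5* was the lowest of all arrays, the same dog had 0.52, -0.69 and -0.70, with a neutrophil sum of 771606, and ctrl dog 7 had 0.45, -0.71 and 0.04 in the same order. In dog 4 the neutrophil genes had a median of 0.70 after minus before ASIT and 8 of 11 were higher, as were 6 of 7 monocyte genes (median 0.96), while 1 of 9 T cell, 0 of 5 cytotoxic and 0 of 7 erythroid genes were higher. Low counts of T cell and cytotoxic genes higher after ASIT were also found in dog 3 (0 of 9 and 0 of 5), dog 6 (1 of 9 and 1 of 5) and dog 5 (3 of 9 and 0 of 5), whose neutrophil genes had medians of -0.19, -0.42 and -0.24 after minus before. In dog 7 9 of 11 neutrophil genes were higher (median 0.34), beside 2 of 9 targets, and in dog 2 2 of 11 neutrophil, 6 of 9 T cell and 4 of 5 cytotoxic genes were higher. In bulk blood, more cells of a type and more RNA per cell cannot be told apart, and the part of cell makeup in the values of the targets was not tested.

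Over the groups, 0 of 11 neutrophil genes and 0 of 9 T cell genes had an unadjusted limma p under 0.05 in any comparison, and 0 genes of any list named here or below passed the adjusted threshold. The brightest probes were those of *S100A8* among the neutrophil and *LCK* among the T cell genes, and the brightness of different probes does not rank their transcripts. Without a probe under their name were *FPR1* and *FCGR3A* of the neutrophil list, *FCN1* of the monocyte list, *CD5* of the T cell list, *GZMB*, *NKG7*, *GNLY* and *KLRB1* of the cytotoxic list, *SIGLEC8*, *PRG2* and *EPX* of the eosinophil list, *HBB* and *HBA1* of the erythroid list, and *PF4*, *GP1BB* and *GP6* of the platelet list. The median difference of the T cell genes was 0.10 in 0 vs. ctrl and -0.23 in 6 months vs. ctrl. That of the 8 B cell genes was -0.04 and -0.34, and that of 5 tested of 9 cytotoxic genes 0.10 and -0.30, where *GZMK*, a granzyme with the brightest probe of these, lay lower after ASIT than in ctrl (-0.61, limma adjusted p = 0.681, exact permutation p = 0.0407). In 0 vs. 6 months, where 7 of 9 targets were above 0, 7 of 9 T cell genes (median 0.30), 7 of 8 B cell genes (0.29) and 5 of 5 cytotoxic genes (0.31) were above 0 too. The summed Cy5 signal of the T cell genes had a median of 31776.6 in ctrl, 39448.3 before and 30411.5 after ASIT.

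Of the 7 tested monocyte genes, with the probe of *LYZ* brightest, 3 were above 0 in 6 months vs. ctrl, beside 43.6% of all probes. Their median difference was -0.004. Among them 1, *CD68*, had an unadjusted limma p under 0.05 there (0.78, exact permutation p = 0.0368). Of 7 tested eosinophil and basophil genes, with *MS4A2* brightest, 6 were above 0 in both comparisons with ctrl, and *CPA3*, the carboxypeptidase of mast cells and basophils, had a difference of 1.92 in 6 months vs. ctrl (exact permutation p = 0.0292) with single dogs up to 5.81. *IL5RA*, the interleukin 5 receptor of eosinophils, had one of 0.52 (exact permutation p = 0.0308). The 7 tested erythroid genes, with *ALAS2* brightest, had median differences of 0.33 and 0.54, and their summed Cy5 signal ranged from 47015.7 to 427985 among ctrl alone. Of the 5 tested platelet genes, with *TREML1* brightest, all lay below 0 in the 3 comparisons, and *PPBP* was lower in 0 vs. ctrl (-0.65, exact permutation p = 0.0864, limma unadjusted p = 0.0489).

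Genes that act with the receptor were taken as a list of 23, of which 18 were tested. In 0 vs. ctrl 8 of 18 were above 0, beside 47.6% of all probes, with a median of -0.06, and 0 passed the adjusted threshold. At an unadjusted limma p under 0.05, 3 were higher and 1 lower, beside 3.81% and 7.93% of all probes. *IPO13*, an importin that carries the receptor into the nucleus, was 2.08-fold higher before ASIT than in ctrl (log2 difference 1.06, limma SE 0.25, adjusted p = 0.113, exact permutation p = 0.000777). Its log2 ratio was 0.10 to 1.23 in ctrl and 0.80 to 2.22 before ASIT, but Cy5 was well above background on 2 of 7 arrays before and 3 of 7 after ASIT. *HSD11B2*, the enzyme that inactivates cortisol, was higher by 0.76 (exact permutation p = 0.0465), likewise with Cy5 well above background on 2 of 7 arrays at each time, so that both ratios rest on signals near background.

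*PTGES3*, the co-chaperone p23 of the receptor complex, was bright on all arrays and had a difference of 0.37 in 0 vs. ctrl (limma adjusted p = 0.312, exact permutation p = 0.0297). It falls outside the rule for named genes and was chosen after its values were seen. *NR3C2*, the mineralocorticoid receptor, which also binds cortisol, had -0.67 and *POMC*, the precursor of corticotropin, 0.60 in 6 months vs. ctrl (exact permutation p = 0.0749 and 0.0549), and both had an unadjusted limma p under 0.05. Against the arrays after ASIT *IPO13* and *HSD11B2* lay higher before it by 0.73 and 0.66 (exact permutation p = 0.0373 and 0.133). This test regroups the arrays and ignores that they are of the same dogs. A paired test was not run for genes of the lists. *FKBP4*, with the brightest probe of the list, differed by -0.09 and -0.02 from ctrl.

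A list of 51 further genes known to be induced by glucocorticoids was read in the same way, and 43 were tested. In 0 vs. ctrl 27 of 43 were above 0, beside 47.6% of all probes, with a median of 0.03 against -0.02. At an unadjusted limma p under 0.05, 1 was higher and 1 lower, beside 3.81% and 7.93% of all probes. After ASIT, against ctrl, 29 of 43 were above 0, beside 43.6%, with a median of 0.06 against -0.04. By the same unadjusted threshold 2 were higher and 0 lower, beside 4.08% and 3.12%. Before against after ASIT the count above 0 was 18 of 43, beside 48.6%, with a median of -0.04 against -0.01. There 0 genes had an unadjusted limma p under 0.05, beside 5.96% of all probes.

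*CXCR4*, a chemokine receptor that holds leukocytes in bone marrow and tissue, was the higher gene in 0 vs. ctrl. Its log2 ratio ranged from -0.96 to 0.49 in ctrl (median 0.12) and from 0.47 to 1.09 before ASIT (median 0.59), so that the groups touched at the ends of their ranges. The mean was 1.68-fold that of ctrl (log2 difference 0.75, limma SE 0.22, adjusted p = 0.176, exact permutation p = 0.00311). *GADD45B*, a stress sensor of the p38 pathway, was the lower one (-0.44, exact permutation p = 0.0862). After ASIT *GLUL*, glutamine synthetase, and *ORM1*, an acute phase protein, lay above ctrl by 0.84 and 0.68 (exact permutation p = 0.0174 and 0.0228). *RGS2*, with the brightest probe of the list, differed by 0.23 and 0.32 from ctrl (limma adjusted p = 0.796 and 0.777).

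The list was also read array by array. Dog 2 before ASIT had the highest median log2 ratio of the 43 genes among the 22 arrays, 0.60, and dog 4 before ASIT the lowest, -0.20. After minus before ASIT, the median over the list was 0.59 in dog 4, with 30 of 43 genes higher, and -0.25 in dog 2, with 16 of 43 higher. In the other 5 dogs it lay between -0.21 and 0.13. Elsewhere the list and the targets did not always go together. In dog 5 before ASIT 19 of 43 list genes lay above their ctrl median, beside 5 of 9 targets. In dog 6 after ASIT 27 of 43 did so, beside 4 of 9 targets.

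Among 29 genes known to be repressed by glucocorticoids, 27 were tested, 15 of them above 0 in each comparison with ctrl, beside 47.6% and 43.6% of all probes, with medians of 0.05 and 0.04. The probe named *IL4*, the brightest of the list, was lower by -0.51 in 0 vs. ctrl (limma adjusted p = 0.244, exact permutation p = 0.0183) and by -0.38 in 6 months vs. ctrl (limma unadjusted p = 0.0541, exact permutation p = 0.0392). It is 1 of 4 tested probes of that name, and the others are not given here. Its mean log2 Cy5 signal was 17.0, where that of *RGS2* was 16.4. Whether it reads the *IL4* transcript was not tested. At an unadjusted limma p under 0.05, 0 genes of the list were higher and 1 lower in each comparison with ctrl. Of all probes, 3.81% were higher and 7.93% lower in 0 vs. ctrl, and 4.08% and 3.12% in 6 months vs. ctrl. The lower gene in 6 months vs. ctrl was *IL13*. Its Cy5 stood well above background in 6 of 8 healthy dogs and in 1 of 7 patients at each time, which leaves no fair comparison. *CCL3*, a chemokine of macrophages, was higher before than after ASIT (0.84, exact permutation p = 0.0746, limma unadjusted p = 0.0253, both ignoring the pairing of dogs). Its Cy5 stood well above background on 5 of 7 arrays at each time, so that some of its ratios rest on signals near background.

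Of 15 circadian clock genes 13 were tested, of which 4 lay above 0 in 0 vs. ctrl and 3 in 6 months vs. ctrl, beside 47.6% and 43.6% of all probes. Their median difference was -0.09 in the former and -0.24 in the latter, against -0.02 and -0.04 for all probes. These counts and medians include *PER2*, *TEF*, *CIART* and *NPAS2*, which were below 0 in both comparisons. Their Cy5 stood well above background on 6, 8, 8 and 8 of 8 ctrl arrays. Before ASIT it did so on 2, 5, 1 and 1 of 7 arrays, and after it on 0, 2, 2 and 2. The counts and medians of the list thus leave no fair comparison. *NR1D1*, the clock repressor REV-ERBα, was lower in 6 months vs. ctrl: its log2 ratio ran from -0.18 to 0.38 in ctrl and from -0.87 to -0.04 after ASIT (difference -0.48, limma adjusted p = 0.616, exact permutation p = 0.00186). *CRY1*, a repressor of the same loop with the brightest probe of the list, was higher, with a difference of 1.09 (exact permutation p = 0.0213). *RORA*, an activator of the clock, was lower in 0 vs. ctrl (-0.34, exact permutation p = 0.0385). At an unadjusted limma p under 0.05, 0 clock genes were higher and 2 lower in 0 vs. ctrl, beside 3.81% and 7.93% of all probes. In 6 months vs. ctrl 1 was higher and 2 lower, beside 4.08% and 3.12%. Of the lower genes, 1 in each comparison was *CIART*. Its Cy5 stood well above background on all 8 ctrl arrays but on 1 of 7 before and 2 of 7 after ASIT. This again leaves no fair comparison. The hour of each blood sample is not given in the sources used here.

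Immediate early genes, which answer stress and handling within minutes, numbered 24, with 21 tested. For 6 months vs. ctrl 16 of 21 were above 0, beside 43.6% of all probes, with a median of 0.13, and at an unadjusted limma p under 0.05 4 were higher and 0 lower, beside 4.08% and 3.12%. In 0 vs. ctrl 12 of 21 were above 0, beside 47.6%, with a median of 0.06, and 2 were higher and 1, *GADD45B*, lower, beside 3.81% and 7.93%. No gene of the list passed the adjusted threshold of limma.

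*GADD45A*, a growth arrest gene with the brightest probe of them, gave log2 ratios from -1.25 to 1.40 in ctrl (median -0.26), from -0.02 to 2.40 before ASIT (median 1.19) and from 0.45 to 1.60 after it (median 1.20). The groups overlapped through the upper end of ctrl. Its mean was 2.38-fold that of ctrl before and 2.25-fold after ASIT (limma adjusted p = 0.176 and 0.620, exact permutation p = 0.0213 and 0.0118). *NR4A1*, an orphan nuclear receptor, was higher by 0.55 in both (exact permutation p = 0.0233 and 0.0210), and *FOS* by 0.72 in 6 months vs. ctrl (exact permutation p = 0.0553). *FOSL2*, outside the rule and chosen after its values were seen, had 0.56 there (exact permutation p = 0.00373). *IER2* was lower before than after ASIT (-0.40, exact permutation p = 0.0332, ignoring the pairing of dogs).

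The genes most like the receptor and *FKBP5* were found from the correlation of log2 ratios over the 22 arrays of 15 dogs after the mean of each group was taken off, among 7892 named genes well above background throughout. For *NR3C1* these were *KCTD20*, *TCF25* and *STAT3*, with Pearson r of 0.90, 0.87 and 0.87 and Spearman rho of 0.87, 0.84 and 0.82. Without the 2 ctrl arrays farthest from the median r was 0.82, 0.79 and 0.76. For *FKBP5* they were *SSU72*, *GTF2B* and *IL18RAP*, with r of 0.85, 0.81 and 0.76 and rho of 0.83, 0.63 and 0.37. Without dog 2 before and dog 4 after ASIT r was 0.80, 0.61 and 0.27, so that the likeness of *IL18RAP* rested on these 2 arrays. The genes were picked as the highest of many, and the values are a description.

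The probes of the receptor and of 3 targets described above, *FKBP5*, *DUSP1* and *DDIT4*, are shown by their first 30 of 60 bases, as the scanner files give them, since a probe reads only the stretch it pairs with. Positions are those of the build in the file headers, CanFam3.1. The probe of *NR3C1* lies at chr2:38145653-38145712, that of *FKBP5* at chr12:4727530-4727589, both on the minus strand. Those of *DUSP1*, chr4:39590127-39590186, and *DDIT4*, chr4:22918787-22918846, lie on the plus strand. Their 60 bases hold 45%, 35%, 45% and 35% G or C in the same order. Whether they lie in coding or untranslated sequence was not analysed here.
*NR3C1*: aagaaaaaactgtccagcatgccgctatcg
*FKBP5*: atcctaacaatttgggctgtctgttaggtt
*DUSP1*: actaaccgagtcaagctggatgaggccttt
*DDIT4*: actgtttacatgaagatactcgctgttcat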

How the data were processed

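The authors deposited the scanner output of Agilent Feature Extraction (version 10.7.3.1 per the labels, 10.10.1.1 per the file headers) for each of the 22 arrays: processed and raw intensity values of Cy5 and Cy3, signal flags, and the log10 ratio of Cy5 over Cy3. They also deposited a series matrix of log10 ratios, which equalled those of the scanner files within 1e-06 for the 14 arrays of cAD patients and correlated with them by r = 0.711 to 0.844 for the 8 ctrl arrays, for a reason not given in the sources used here. The log10 ratios were converted to log2. Spots flagged as outliers were left out, spots of 1 probe were averaged, and a probe was tested where 7 or more arrays had its Cy5 well above background, which left 38287. Gene names are those of the files.

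The 3 groups were fitted together with limma 3.58.1 in R 4.3.3 (lmFit and eBayes), p adjusted after Benjamini and Hochberg over the 38287 probes, and the fit was tested on simulated data. A gene was represented by its tested probe of highest mean Cy5 signal. Single genes were also tested by 2-sided exact permutation of arrays (smallest p 0.000155 for 8 against 7 and 0.000583 for 7 against 7), which ignores the pairing of dogs. The members alone were also tested by exact sign flips over dogs. All members were named. Genes named from a list were among its up to 2 largest rises and falls with an unadjusted p under 0.05 or its gene of brightest probe, with the exceptions stated, and not every such gene is named. Members and lists were chosen with earlier results of these data known. The arrays before and after ASIT are of the same dogs per the labels. Deviations from the group means correlated between the 2 arrays of a dog by r = -0.21 to 0.65, and the highest r with another dog was 0.24 to 0.76, above that of the same dog in 4 of 7 dogs, so that this check does not bear out the pairing by itself. The lowest r between any 2 arrays over all probes was -0.22. The number of arrays limits the precision. The alternatives were the series matrix, the ratio of processed signals, normexp (offset 50) followed by loess, Cy5 alone scaled to the 75th percentile, other filters, the one-way test of the study's methods on the filter used here, slide, scan day or dog as a block (scan day as a fixed block was chosen after seeing the data), the mean of a gene's probes, and leaving out each array.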

Additional observations from a re-analysis of the deposited data

Results flagged for a closer look

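Of 30 sets of values (10 genes in 3 groups), 2 held an array far from the others, about what chance gives, since it marks 1 in 20 such sets. The log2 ratio of *KLF9* in dog 4 after ASIT was 1.82, where the next highest was 0.18. That of *DDIT4* in ctrl dog 1 was 0.75, where the next highest was -0.22. Without this ctrl dog the difference of *DDIT4* was 0.88 in 0 vs. ctrl and 0.63 in 6 months vs. ctrl. The causes were not tested.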

How the results depend on the processing

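Leaving out 1 array at a time called 0 members in each comparison, and none of the other settings called a member except Cy5 alone, with 5 of 10 in 0 vs. ctrl and 3 of 10 in 6 months vs. ctrl, beside 17273 and 15702 of 38287 probes. With dog as a replicate block (paired arrays), 0 members were called in 0 vs. 6 months. The differences, such as 0.463 for *FKBP5* and 0.243 for *DDIT4*, are the same as without the block by construction, since every dog has both arrays, so that only the tests differ. Slide and scan day as a fixed block could be fitted in 0 vs. 6 months only, and scan day as a fixed block was chosen after seeing the data. The cause of the differences between settings was not tested.

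Among values called with it, Cy5 alone gave larger ones for *DDIT4* (1.06), *DUSP1* (0.766) and *TSC22D3* (0.674) in 0 vs. ctrl and for *KLF9* (-0.971) and *PER1* (-1.29) in 6 months vs. ctrl. It gave the other sign, called or not, for *NR3C1* (0.0208), *PER1* (-1.30) and *KLF9* (-0.910) in 0 vs. ctrl, *NR3C1* (-0.226) and *ZBTB16* (0.630) in 6 months vs. ctrl, and *NR3C1* (0.247), *PER1* (-0.0114) and *SGK1* (0.0838) in 0 vs. 6 months. Without a call it gave *SGK1* 0.629 and *ANXA1* 0.327 in 0 vs. ctrl. Likewise without a call, in 6 months vs. ctrl it gave *SGK1* 0.545, *DUSP1* 0.736, *ANXA1* 0.194 and *FKBP5* 0.0121. In 0 vs. 6 months, with 0 members called, it gave *ZBTB16* -0.830, *DDIT4* 0.463, *TSC22D3* 0.231, *KLF9* 0.0605 and *DUSP1* 0.0302. Normexp and loess gave smaller values for *DUSP1* (0.247 before and 0.205 after ASIT, each against ctrl) and *FKBP5* (0.189 before ASIT against ctrl, 0.0425 before against after), and turned *PER1* (-0.0692) in 0 vs. ctrl, *KLF9* (0.0748) and *PER1* (0.0583) in 6 months vs. ctrl, and *KLF9* (-0.0359) and *PER1* (-0.128) in 0 vs. 6 months. The mean of a gene's probes turned *NR3C1* (0.0839) and *SGK1* (-0.0245) in 0 vs. ctrl and *TSC22D3* (-0.0785) in 0 vs. 6 months, and the series matrix turned *NR3C1* (0.00646) in 0 vs. ctrl.

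Slide as a random block turned *NR3C1* (0.0124) in 0 vs. ctrl and *FKBP5* (-0.0984) and *PER1* (0.00227) in 6 months vs. ctrl. Scan day as a random block turned *NR3C1* (0.0489) in 0 vs. ctrl, *FKBP5* (-0.0713) and *PER1* (0.0188) in 6 months vs. ctrl, and *SGK1* (0.0398) in 0 vs. 6 months. In 0 vs. 6 months the fixed block gave *NR3C1* 0.0532, *PER1* -0.116 and *SGK1* 0.152 for slide and 0.0927, -0.0971 and 0.164 for scan day. The 3 dogs with both arrays on 1 slide, as a replicate block, gave *ANXA1* -0.0492, *SGK1* 0.215 and *ZBTB16* 0.0788.

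Without 1 array, the direction was kept in 396 of 440 values of single genes, and these kept it but moved over 1.5 times: *ANXA1* 0.0499 to 0.268 and *ZBTB16* -0.215 to -0.0926 in 0 vs. ctrl, *NR3C1* 0.0761 to 0.309, *SGK1* 0.0554 to 0.283 and *ZBTB16* -0.134 to -0.00922 in 6 months vs. ctrl, and *NR3C1* -0.249 to -0.0886, *DDIT4* 0.126 to 0.335, *ZBTB16* -0.143 to -0.0200 and *FKBP5* 0.110 to 0.807 in 0 vs. 6 months, and *FKBP5* 0.117 to 0.607 in 0 vs. ctrl. The following ranges crossed 0. For 0 vs. ctrl: *NR3C1* -0.0975 to 0.136, *PER1* -0.0571 to 0.233, *KLF9* -0.0340 to 0.159, *SGK1* -0.0433 to 0.279. For 6 months vs. ctrl: *FKBP5* -0.338 to 0.243, *PER1* -0.173 to 0.174, *KLF9* -0.339 to 0.0961, *ANXA1* -0.0582 to 0.160. For 0 vs. 6 months: *TSC22D3* -0.0945 to 0.0813, *PER1* -0.0628 to 0.284, *DUSP1* -0.00732 to 0.287, *KLF9* -0.0172 to 0.418, *SGK1* -0.236 to 0.0870, *ANXA1* -0.0166 to 0.225. The number of targets above 0 in 0 vs. 6 months ranged from 4 to 8.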
